A study of Homo sapiens with 17 samples.

Results

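Vimentin (VIM) and 9 genes that encode regulators or products of the mesenchymal state were followed across all libraries: the transcription factors ZEB1, ZEB2, SNAI1, SNAI2 and TWIST1, and CDH2, FN1, TGFBI and SPARC. The 10 genes were taken by symbol from the 57820 genes of the tables. They were selected on the measured level of VIM, which was higher after repression of the e1 enhancer, so values from that contrast are given as a description with no test. Poly-A RNA was sequenced in 17 libraries of the squamous cancer cell lines KYSE140, from the oesophagus, and SKMES1, from the lung. The perturbations asked how e1, a distal element near SOX2, and SOX2 itself act on gene expression. SOX2 is a transcription factor of the SRY-box family that is often amplified in squamous cancers.

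In epithelial-mesenchymal transition, epithelial cells give up junctions built on E-cadherin (CDH1) and take on N-cadherin (CDH2), vimentin filaments and a matrix rich in fibronectin. The zinc-finger factors of the SNAI and ZEB families and the helix-loop-helix factor TWIST1 are known to repress CDH1 through E-box motifs. Vimentin is the intermediate filament of mesenchymal cells, and it is also made by basal, wound-edge and many cultured epithelial cells.

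Libraries fell into 8 groups. KYSE140 cells carrying dCas9 fused to transcriptional repressor domains (CRISPRi) had either guides with no genomic site (n = 2) or guides to e1 (n = 2). KYSE140 cells carrying active Cas9 had a control guide, AAVS1 or Chr2.2 (n = 2), or 1 of 3 guides to the SOX2 coding sequence (n = 3). KYSE140 cells were also kept for 6 h in the solvent DMSO (n = 2) or in 0.5 µM ARV-771 (n = 2), a compound of the targeted protein degrader class. SKMES1 cells carrying dCas9-VP64 with further activators (CRISPRa) had control guides (n = 2) or guides to e1 (n = 2). All guide-bearing cells were pools selected after lentiviral infection, controls included, and not single clones. Replicates of a group were different guides or lettered samples. The study describes the e1 repression and e1 activation libraries as biologically independent experiments. For the knockout and ARV-771 libraries no source used here says so. The knockout p-values cover the spread between guides, with 1 library per guide. Those of ARV-771 cover the spread between lettered samples, which may be technical.

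Library totals were 7260730 to 15781463 expected counts. SOX2 RNA, the check of the labels, was at 379.21 and 364.70 TPM (a transcript's share of the library corrected for its length) under CRISPRi control guides, and e1 guides 1 and 2 left 119.61 and 127.56 TPM. The Cas9 controls held 396.65 and 427.69 TPM, whereas SOX2 guides 2, 3 and 4 left 102.53, 125.04 and 220.69 TPM, although RNA is no direct measure of editing. ARV-771 libraries held 9.80 and 10.54 TPM against 236.02 and 223.21 TPM in DMSO, and SKMES1 libraries went from 1.68 and 1.53 TPM to 223.80 and 315.75 TPM with e1 guides. Every labelled direction was therefore seen in SOX2 RNA. Of 7 squamous markers, the SKMES1 libraries held SFN (321.02 to 812.04 TPM) and PKP1 (71.98 to 140.63 TPM), whereas KRT5 was at 0.05 to 1.26 TPM, DSG3 at 0 to 0.1 TPM, TP63 at 1.87 to 3.79 TPM and KRT6A at 0.32 to 19.23 TPM. The SKMES1 libraries also differed from each other within groups. CRISPRa control replicate 2 held KRT14 at 118.44 TPM against 0 to 0.31 TPM in the other 3. Genes at 10 CPM or more (counts scaled to the library total) in 1 library and under 1 CPM in the other 3 numbered 4 for control replicate 2, 8 for e1 guide 3, 1 for control replicate 1 and 0 for e1 guide 1. The calls in SKMES1 were therefore also made without control replicate 2, and those of e1 activation without each library.

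The regions just before the transcription starts of VIM, CDH2 and ZEB1 are printed because VIM and CDH2 moved in opposite directions in KYSE140 and ZEB1 separated the 2 lines. Each is the 250 bases before the start of the main annotated transcript in GRCh37 (the same build as hg19), read 5′ to 3′ on the gene's own strand: chr10:17269990-17270239 on the plus strand for VIM, chr18:25757095-25757344 on the minus strand for CDH2 and chr10:31607895-31608144 on the plus strand for ZEB1. The windows of CDH2 and ZEB1 lie within the spans of their genes (chr18:25512843-25757910 and chr10:31607424-31818742), since other annotated transcripts start further upstream. Capitals mark matches to the E-box CAGGTG, the SOX motif ACAANG or the AP-1 motif TGANTCA, on either strand.
VIM: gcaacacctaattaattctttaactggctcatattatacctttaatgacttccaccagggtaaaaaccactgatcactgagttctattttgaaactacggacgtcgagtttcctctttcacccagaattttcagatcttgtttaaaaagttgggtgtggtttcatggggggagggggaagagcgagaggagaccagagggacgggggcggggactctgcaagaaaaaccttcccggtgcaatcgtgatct
CDH2: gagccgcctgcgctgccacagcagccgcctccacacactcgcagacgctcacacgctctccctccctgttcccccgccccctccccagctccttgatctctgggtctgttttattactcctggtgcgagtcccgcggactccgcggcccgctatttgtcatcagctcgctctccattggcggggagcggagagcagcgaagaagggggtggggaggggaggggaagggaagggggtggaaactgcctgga
ZEB1: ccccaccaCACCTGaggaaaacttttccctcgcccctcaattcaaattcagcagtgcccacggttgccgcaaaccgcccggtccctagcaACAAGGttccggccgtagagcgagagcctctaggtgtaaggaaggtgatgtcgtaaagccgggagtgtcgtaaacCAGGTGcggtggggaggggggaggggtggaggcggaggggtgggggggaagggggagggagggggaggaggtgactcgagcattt
No match lay in the VIM or CDH2 window, whereas the ZEB1 window held 2 E-boxes and 1 SOX motif, which did not overlap each other. Among the same windows of 18921 genes, 17.2% held the E-box, 24.7% the SOX motif and 4.71% the AP-1 motif. Windows were searched for 7 of the 10 genes, those listed by symbol in the RefSeq promoter table. Those of FN1, TGFBI and SPARC had no match and that of ZEB2 had 1 SOX motif. SNAI1, SNAI2 and TWIST1 were not matched.

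Repression of e1 was the contrast from which the genes were chosen. VIM (chr10:17270240-17279592, plus strand) reached 122.21 and 113.82 TPM under control guides against 1156.41 and 1082.03 TPM under e1 guides 1 and 2. Its place among all genes ordered by TPM went from 1248 and 1332 to 141 and 145. VIM was thus a moderately expressed gene in the control libraries and among the most abundant transcripts in both e1 libraries, a difference of 3.27 ± 0.06 on the log2 scale (SE) or 9.63-fold.

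SNAI2 (Slug), the member of the SNAI family with the highest TPM in these cells, gave 38.97 and 33.17 TPM under control guides against 130.17 and 114.02 TPM under e1 guides, a log2 difference of 1.77 ± 0.09. SNAI1 (Snail) stayed at low levels throughout, 0.68 and 1.25 TPM against 1.78 and 1.64 TPM, from 8 and 15 counts against 17 and 17. CDH2 went the other way, from 80.85 and 79.26 TPM to 41.58 and 45.49 TPM, a log2 difference of -0.90 ± 0.06. N-cadherin RNA was thus lower where vimentin RNA was higher.

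TGFBI, a secreted matrix protein induced by TGF-beta, differed little, at 962.03 and 1055.73 TPM against 1170.50 and 1354.49 TPM. TWIST1 was at 2.60 and 3.02 TPM against 2.70 and 1.95 TPM, and its groups overlapped. In all, 4 of the 6 genes that passed the filter on low counts were past 1.5-fold, 3 higher and 1 lower. Over all 13792 genes in that fit 25% were past the same fold, and nothing is read from this count because the contrast chose the genes. The filter kept out ZEB1 (4 pooled counts with e1 guides, 3 with control guides), FN1 (24 and 8), SPARC (4 and 1) and ZEB2, which had 0 counts in both e1 libraries against 10 and 7 in the controls. With the floor set at 3 counts over the group, ZEB2 was at least 4.85-fold lower. CDH1 gave 89.55 and 93.64 TPM under control guides against 90.55 and 96.24 TPM under e1 guides, a log2 difference of 0.05 ± 0.05.

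**Figure D1:**
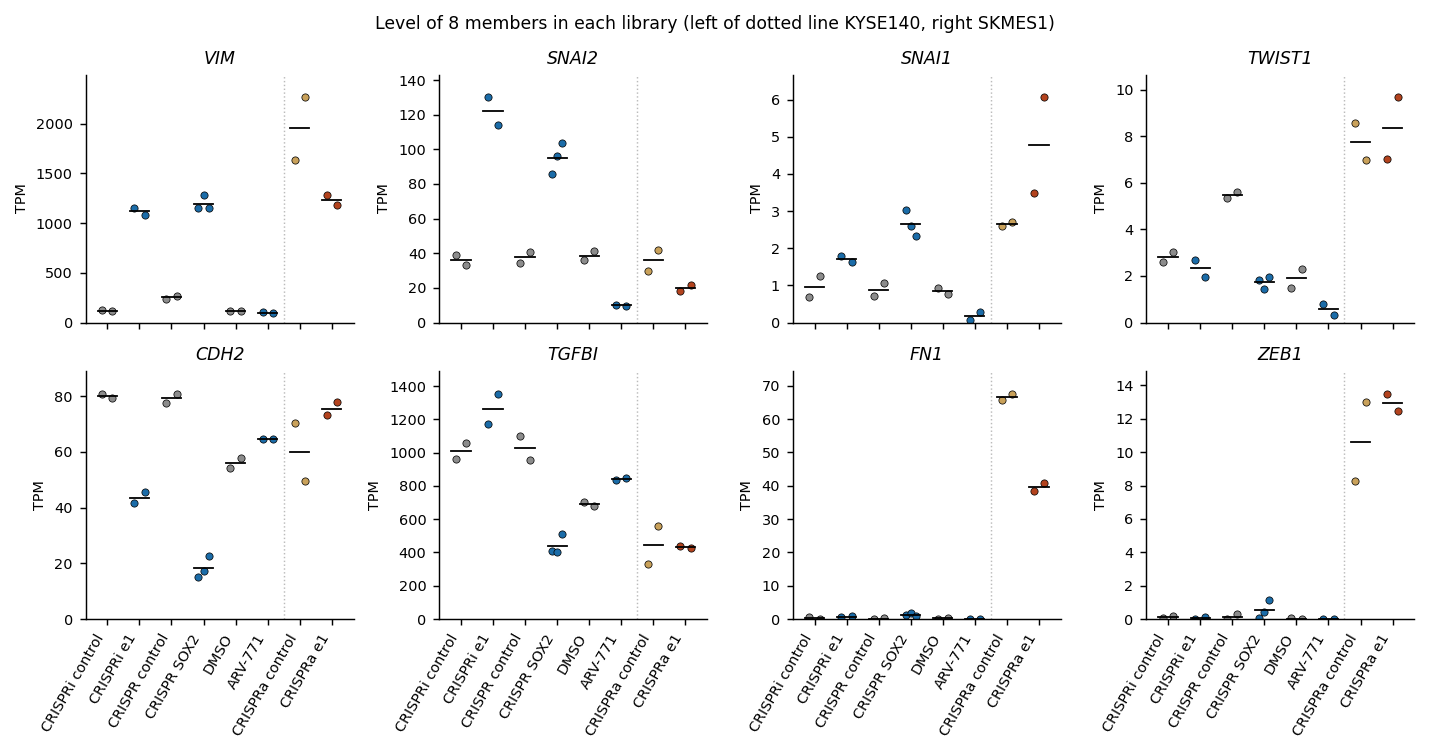
Level of 8 of the 10 genes in TPM (vertical axes, each starting at 0) in each library, where points are libraries and bars are group means. VIM and SNAI2 lie highest among the KYSE140 groups with e1 or SOX2 guides, CDH2 lies lowest there, and ZEB1 and FN1 reach at most 1.12 and 1.69 TPM in KYSE140 and are far higher in all 4 SKMES1 libraries.

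The genes of 5 lists of the wider mesenchymal and epithelial programme were also described, with no test. Past 1.5-fold, 11 of 25 fitted cytoskeleton and surface genes were higher and 4 lower with e1 guides, 5 and 2 of 11 other mesenchymal transcription factors, 11 and 9 of 26 matrix genes, 9 and 4 of 33 TGF-beta genes and 7 and 6 of 37 epithelial genes. Over all genes in the fit 11.5% were higher and 13.5% lower past that fold.

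Knockout of SOX2 asked which genes change when SOX2 itself is cut in the same line. In these libraries, which the choice of genes did not use, VIM and SNAI2 rose and CDH2, TGFBI and TWIST1 fell, and SNAI1 and FN1 were higher at low counts. Of the 10 genes 7 passed the filter. FN1 and SNAI1 passed only through the knockout group, where they are high, so the count over the 7 is not read as support. With edgeR's quasi-likelihood test the 7 were called at an adjusted p under 0.05 and a fold over 1.5, against 29.7% of the 13978 genes tested (16.3% higher and 13.5% lower). Scaled to library size alone, 1703 genes were higher and 2999 lower in place of 2275 and 1882, while the genes followed here stayed at 4 risen and 3 fallen. ZEB1, ZEB2 and SPARC were not tested.

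VIM was at 237.29 TPM with the AAVS1 guide and 267.44 TPM with the Chr2.2 guide. SOX2 guides 2, 3 and 4 gave 1154.23, 1280.34 and 1152.18 TPM. The 3 knockout libraries lay close together and far above both controls, at about the level of the 2 e1 libraries. The rise was 2.46 ± 0.08 on the log2 scale, or 5.48-fold (edgeR adjusted p = 9.2e-10). The Cas9 controls started higher than the CRISPRi controls, whose VIM level was 122.21 and 113.82 TPM. The knockout and e1 fold changes therefore start from different baselines, and the gap between the control systems was not tested.

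Among the transcription factors, SNAI2 rose from 34.64 and 40.53 TPM to 85.60, 96.25 and 103.84 TPM, by 1.54 ± 0.09 on the log2 scale (edgeR adjusted p = 7.0e-08). SNAI1 counts of 7 and 8 under control guides became 44, 20 and 24 under SOX2 guides, a log2 change of 1.82 ± 0.43 that is given as a description. TWIST1 fell from 5.35 and 5.62 TPM to 1.81, 1.45 and 1.97 TPM, by 0.98 ± 0.32 on the log2 scale (edgeR adjusted p = 0.0222). SNAI2 was the abundant regulator of the 3, and the other two stayed below 6 TPM in every KYSE140 library. ZEB1 had 0 and 2 counts under control guides against 3, 10 and 1 under SOX2 guides, and ZEB2 had 6 and 4 against 1, 6 and 3, so neither ZEB gene was detected above a few counts.

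CDH2 fell from 77.64 and 80.88 TPM to 15.07, 17.22 and 22.55 TPM, by 1.90 ± 0.11 on the log2 scale (edgeR adjusted p = 5.4e-08). CDH1 rose at the same time, from 109.36 and 130.43 TPM to 164.31, 167.19 and 216.24 TPM, by 0.76 ± 0.09 on the log2 scale (edgeR adjusted p = 1.3e-05). The ratio of CDH2 to CDH1 TPM was 0.710 and 0.620 in the controls and 0.0917, 0.103 and 0.104 in the knockout libraries. The cadherins thus moved in the epithelial direction while VIM and SNAI2 moved in the mesenchymal one. With e1 repression the same ratio went from 0.903 and 0.846 to 0.459 and 0.473, with CDH2 lower and CDH1 at a similar level.

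**Figure D2:**
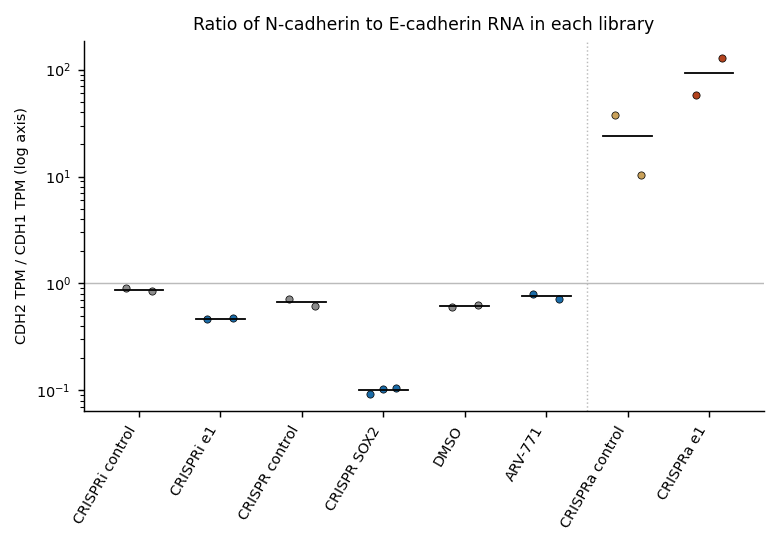
Ratio of CDH2 to CDH1 TPM in each library (vertical log axis, points are libraries, bars are arithmetic group means, the grey line is a ratio of 1). The SOX2 knockout libraries sit lowest, at 0.0917 to 0.104, and the SKMES1 libraries lie between 10.4 and 130.

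The matrix genes did not move as 1 group. TGFBI fell from 1098.61 and 953.59 TPM to 408.33, 401.31 and 509.82 TPM, by 1.05 ± 0.09 on the log2 scale (edgeR adjusted p = 1.3e-06). In e1 repression it was slightly higher, by 0.36 on that scale, so the contrasts had opposite signs for TGFBI, a difference that was not tested. FN1 (fibronectin) had 0 and 4 counts under control guides against 22, 13 and 17 under SOX2 guides, and at no more than 1.69 TPM it stayed a minor transcript (log2 change 2.92 ± 0.77, given as a description, 1.80 without the AAVS1 control and 7.15 without the Chr2.2 control). Its pooled ratio was 6.98 with a 95% counting interval of 2.57 to 26.6. SPARC, a collagen-binding matrix protein, had 0 to 2 counts in these 5 libraries.

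Without the AAVS1 control the calls of SNAI1, FN1 and TWIST1 were lost and 4 of 7 remained, those of VIM, SNAI2, CDH2 and TGFBI. TWIST1 was also lost without the Chr2.2 control, without guide 3 and with DESeq2 (adjusted p = 0.0847).

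**Figure D3:**
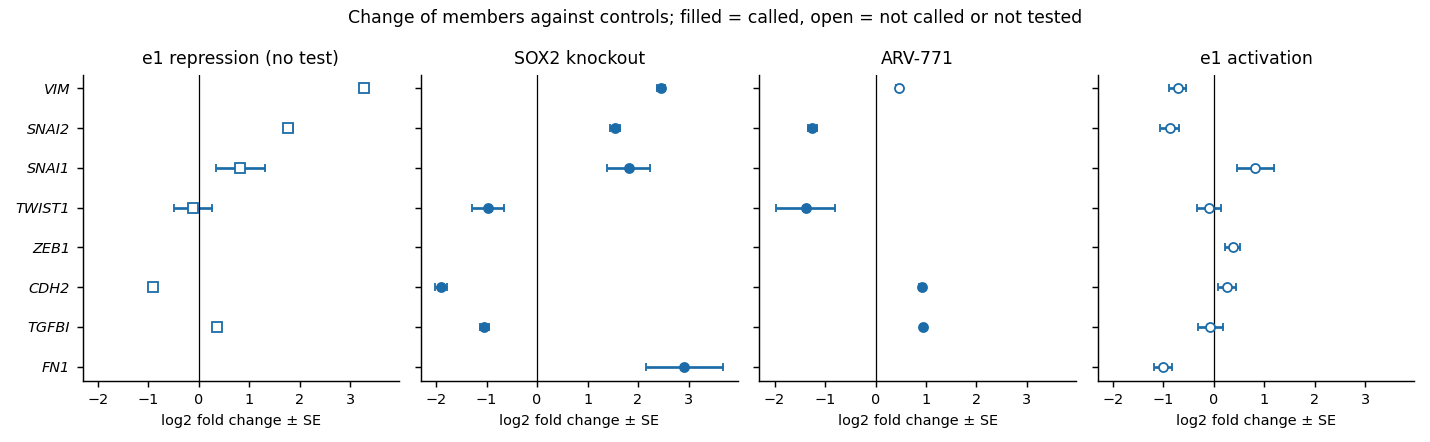
Log2 fold change (horizontal axis) of 8 genes in 4 contrasts with controls, with bars of 1 SE, where filled circles were called, open circles were tested and not called, open squares (e1 repression) were not tested, and genes without a point did not pass the filter. VIM and SNAI2 lie right of 0 and CDH2 left of 0 in e1 repression and SOX2 knockout, SNAI2 lies left of 0 with ARV-771, and no point is filled in e1 activation.

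Markers of other cell types were looked at beside VIM, since vimentin is abundant in stromal and blood cells. The summed level of 6 leukocyte genes was 4.61 to 4.91 TPM in CRISPRi controls and 29.3 to 30.0 TPM with e1 guides, and 7.30 to 7.81 TPM in Cas9 controls and 58.4 to 75.1 TPM in the knockout. The difference lay almost wholly in CD68, a lysosomal protein of macrophages also made by other cells, which was at 0.84 to 1.08 TPM in CRISPRi controls and 24.36 to 25.76 TPM with e1 guides, and which went from 3.24 to 3.93 TPM up to 53.78 to 70.22 TPM in the knockout. PTPRC, the pan-leukocyte CD45, was at 0 to 0.23 TPM in the knockout and at 0 with e1 guides, and CD3E was at 0 in all 9 libraries of these 4 groups. Of 8 fibroblast genes, COL1A1 went from 9.81 to 15.25 TPM up to 39.11 to 43.86 TPM in the knockout, while COL1A2 and COL3A1, its usual partners, reached at most 0.21 and 0.08 TPM in any library. THY1 went the other way in the knockout, from 14.81 to 20.77 TPM down to 7.86 to 12.65 TPM. PDGFRA was also lower there, at 0 to 0.37 TPM against 1.82 to 3.02 TPM. With e1 guides COL1A1 was at 37.31 to 38.28 TPM against 13.47 to 15.88 TPM. THY1 was at 19.39 to 27.09 TPM against 23.1 to 34.52 TPM, and its groups overlapped. The 3 endothelial genes matched summed to at most 0.82 TPM in any KYSE140 library and to 0.35 to 0.62 TPM in SKMES1 controls and 1.61 to 8.38 TPM in SKMES1 with e1 guides. Squamous genes, 7 in the list, summed to 7618 to 7645 TPM in the Cas9 controls and 25347 to 30339 TPM in the knockout, a sum carried by KRT5 and KRT6A. The sum was 6496 to 6515 TPM in CRISPRi controls and 10664.9 to 10805.5 TPM with e1 guides. KRT14 went from 148.52 to 155.79 TPM up to 1932.99 to 2644.29 TPM in the knockout. With e1 guides it was at 933.03 to 1132.1 TPM against 81.94 to 87.12 TPM. TP63, the squamous regulator among them, went the other way, from 166.66 to 181.94 TPM down to 56.88 to 78.45 TPM in the knockout and from 153.21 to 157.15 TPM down to 94.63 to 98.01 TPM with e1 guides. PKP1 was also lower with e1 guides, at 114.05 to 116.92 TPM against 176.78 to 177.47 TPM, but higher in the knockout. The part of these genes in the VIM result was not tested. In bulk RNA more cells of a type and more RNA per cell cannot be told apart.

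The rest of the mesenchymal programme was read from 5 lists. Over all genes tested in the knockout 16.3% rose and 13.5% fell, the shares to set beside each list. In the SOX2 knockout, 12 of 23 tested genes of the mesenchymal cytoskeleton and surface rose and 3 fell, with a median log2 change of 0.60 against -0.01 over all genes tested. AXL, a receptor tyrosine kinase, rose by 3.16 ± 0.14 and CD44, the hyaluronan receptor, by 1.55 ± 0.07 on the log2 scale. PDGFRA, the PDGF receptor alpha, fell by 5.06 ± 0.56, from 1.82 to 3.02 TPM down to 0 to 0.37 TPM. The intermediate filament gene NES fell by 2.28 ± 0.37, from 1.15 to 1.53 TPM down to 0.19 to 0.28 TPM. PDGFRA and NES were thus low in the controls too. PDGFRA passed the filter only through the controls, where it is higher, and the fitted changes of both genes are given as a description. The list counts of the knockout include such genes and are not read as support. Other mesenchymal transcription factors split, 4 risen and 3 fallen of 11, and ETS1 rose by 3.92 ± 0.17 while TCF4 fell by 1.65 ± 0.11.

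Of 32 tested TGF-beta ligands, receptors and signal proteins 9 rose and 4 fell. The ligand INHBA (the activin A subunit) went from 0.98 to 1.76 TPM up to 31.08 to 36.27 TPM, and BMP2 rose by 2.34 ± 0.17 on the log2 scale, whereas BMP7 fell by 1.49 ± 0.15 and LTBP1, which binds latent TGF-beta, by 1.14 ± 0.12. Matrix partners counted 11 risen and 6 fallen of 26, with TNC (tenascin C) and COL1A1 up by 2.04 ± 0.09 and 2.17 ± 0.11 and the fibrillin gene FBN2 down, at -2.86 ± 0.24.

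The epithelial list had the highest share risen of the 5, 25 of 37 genes, with 2 fallen and a median of 0.91. CLDN4, a tight junction claudin, went from 107.21 to 108.17 TPM up to 912.4 to 950.71 TPM, and ELF3, an epithelial ETS factor, rose by 4.54 ± 0.13 on the log2 scale. The keratin gene KRT8 and EPCAM fell, by 1.04 ± 0.09 and 0.79 ± 0.08. Scaled to library size alone, which moved the median of all genes by -0.21 on the log2 scale, the 79 called genes of the 5 lists were 53 risen and 26 fallen in place of 61 and 18.

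Treatment with ARV-771 asked which transcripts change within hours. SNAI2 fell from 36.01 and 41.19 TPM in DMSO to 9.99 and 9.72 TPM, by 1.25 ± 0.10 on the log2 scale after TMM scaling (edgeR adjusted p = 2.4e-11). TWIST1 fell from 19 and 16 counts to 7 and 3, by 1.38 ± 0.58 on the log2 scale, which is given as a description. It passed the filter only through the DMSO libraries, where it is high. Its call was lost under 6 of 16 alternatives, DESeq2 among them (adjusted p = 0.218). Both regulators were lower in each treated library than in each DMSO library, and SNAI1, not tested, went the same way from 12 and 10 counts to 1 and 5.

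VIM was at 118.17 and 116.85 TPM in DMSO and at 102.59 and 93.65 TPM in ARV-771, and it was not called. Its sign depended on the scaling: TMM gave a log2 change of 0.46 ± 0.06, under the 1.5-fold limit, and scaling to mitochondrially encoded genes gave -0.62 (edgeR adjusted p = 4.5e-06). Over the 16 alternatives its adjusted p ran from 5.8e-13 to 0.971. In TPM, which scales each library to its own total, the treated libraries lay below the DMSO libraries. SOX2, for comparison, fell by 3.77 ± 0.07 on the log2 scale with TMM.

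CDH2, at 54.28 and 57.61 TPM against 64.46 and 64.52 TPM, and TGFBI, at 705.74 and 679.35 TPM against 837.17 and 849.58 TPM, rose on the TMM scale by 0.92 ± 0.05 and 0.94 ± 0.04. Both calls were lost with library-size scaling (0.46 and 0.48), and scaling to mitochondrial genes gave -0.16 and -0.14. So 4 of the 5 tested genes were called, against 52.9% of 13500 genes (21.2% higher and 31.7% lower), 2 risen and 2 fallen on the TMM scale. TWIST1, 1 of the 4, passed the filter only through the DMSO libraries, so this count is not read as support. With library size alone 0 rose and 2 fell, and with mitochondrial scaling 0 rose and 3 fell. These scalings moved the median of all genes to -0.50 and -1.12 on the log2 scale from -0.04. SNAI2 was called as fallen under all 16 alternatives run. FN1, ZEB1, ZEB2 and SPARC had 0 to 9 counts in these 4 libraries and were not tested.

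Of the TGF-beta list, 20 of 31 tested genes fell and 4 rose with ARV-771, with a median log2 change of -1.07 against -0.04 over all genes. Over all genes tested 31.7% fell and 21.2% rose. TGFBR2, the type II TGF-beta receptor, fell by 2.56 ± 0.09 and PMEPA1, a target and brake of the pathway, by 1.83 ± 0.07, whereas LTBP4 and LTBP3, which bind latent TGF-beta, rose by 0.88 ± 0.05 and 0.67 ± 0.06. Other mesenchymal transcription factors counted 6 fallen and 0 risen of 11, among them FOXC1 at -3.10 ± 0.36 and RUNX2 at -2.16 ± 0.20. Both were low in DMSO: FOXC1 went from 2.66 to 2.97 TPM down to 0.15 to 0.25 TPM. RUNX2 went from 4.56 to 4.9 TPM down to 1.19 to 3.48 TPM. FOXC1 passed the filter only through the DMSO libraries, where it is higher, so its fitted change is given as a description. The list counts with ARV-771 include such genes and are not read as support.

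Structural genes had the opposite balance on the TMM scale, with 8 risen and 1 fallen of 23 cytoskeleton and surface genes and 12 risen and 3 fallen of 26 matrix genes. Called in either direction were 39.1% and 57.7% of these lists and 61.1% of the epithelial list. The share over all genes tested was 52.9%. ITGB1 (integrin beta 1) rose by 0.96 ± 0.04 and COL4A1 by 0.88 ± 0.04, while ITGA5, part of the fibronectin receptor, and THBS1 (thrombospondin) fell by 0.73 ± 0.09 and 0.78 ± 0.05. Epithelial genes were 10 risen and 12 fallen of 36, with SPINT2, an epithelial protease inhibitor, at 1.03 ± 0.04 and the epithelial regulators KLF5 and GRHL2 at -2.50 ± 0.09 and -2.19 ± 0.09. With library size alone the called genes of the 5 lists were 3 risen and 49 fallen in place of 34 and 42, and with mitochondrial scaling 1 and 78.

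**Figure D4:**
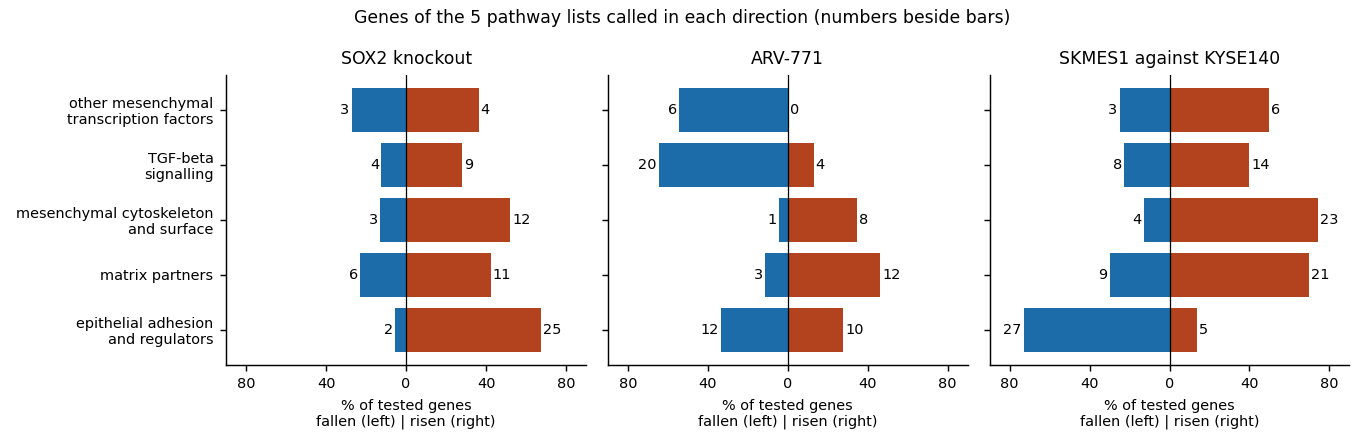
Share of tested genes of each list that was called as risen (right, red) or fallen (left, blue) in 3 comparisons, with the number of genes beside each bar. In the SOX2 knockout 25 epithelial genes rose, with ARV-771 20 TGF-beta genes fell (TMM scale), and in SKMES1 27 epithelial genes were lower than in KYSE140. The matching shares over all genes tested were 16.3% risen, 31.7% fallen and 25.5% lower.

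Activation of e1 in SKMES1 raised SOX2 in a line where VIM is abundant and asked whether the genes respond. None of the 8 tested genes was called by edgeR's quasi-likelihood test of these 4 libraries (0 of 8, against 0.188% of 14859 genes, 0.168% higher and 0.0202% lower), although 4 had an unadjusted p under 0.05: VIM, SNAI2 and FN1 towards lower and ZEB1 towards higher levels. edgeR's exact test called 2 (SNAI2 and FN1) and the quasi-likelihood fit of all 17 libraries 3 (VIM, SNAI2 and FN1). Over all genes 28 were called and 2109 had an unadjusted p under 0.05.

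VIM gave 1638.95 and 2268.19 TPM under control guides against 1283.68 and 1178.49 TPM under e1 guides 1 and 3, a log2 difference of -0.72 ± 0.17 (edgeR adjusted p = 0.187). FN1 was at 65.87 and 67.64 TPM against 38.42 and 40.72 TPM, a difference of -1.01 ± 0.18 (edgeR adjusted p = 0.140). SNAI2 was at 30.04 and 41.63 TPM against 18.41 and 21.92 TPM, a difference of -0.87 ± 0.19 (edgeR adjusted p = 0.165). Both e1 libraries lay below both controls in TPM for these 3 genes. The gap was widest for FN1 relative to the spread of its controls. CD68 was likewise lower with e1 guides, at 36.12 and 44.89 TPM against 66.68 and 132.27 TPM, and the endothelial receptor gene KDR was higher, at 1.51 and 8.09 TPM against 0.30 and 0.49 TPM. Their part was not tested.

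ZEB1 had 306 and 452 counts against 409 and 655, or 30.2 and 35.6 against 45.4 and 41.5 CPM, a log2 difference of 0.37 ± 0.14 (edgeR adjusted p = 0.335). SNAI1 (0.82 ± 0.36), CDH2 (0.26 ± 0.18), TGFBI (-0.07 ± 0.24) and TWIST1 (-0.10 ± 0.24) were not called either. Without control replicate 2, CDH2 was at 0.03 and TGFBI at 0.35. ZEB2 had 0 counts in all 4 libraries, which allows up to 0.190 to 0.333 CPM per library at a floor of 3 counts, and SPARC had 0 to 2.

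These results changed with the library left out and with the tool. Without control replicate 2 the log2 differences were -0.49 for VIM, -0.64 for SNAI2 and -1.02 for FN1 (edgeR adjusted p = 0.105, 0.122 and 0.0480), so FN1 alone was called. Over the 14 alternatives the adjusted p ran from 5.4e-06 to 0.808 for VIM, 8.0e-06 to 0.660 for SNAI2 and 2.3e-12 to 0.564 for FN1. Without control replicate 1, VIM, SNAI2 and FN1 were all called as lower, and DESeq2 called the same 3 genes with all 4 libraries (-0.72, -0.87 and -1.01). Without either e1 library 0 of the 8 genes were called. Of the 5 lists only CTGF, a matricellular protein, at 2.94 ± 0.25 (edgeR adjusted p = 0.0349), and the collagen cross-linking enzyme LOXL2, at -1.22 ± 0.11 (edgeR adjusted p = 0.0371), were called, and both were called without control replicate 2 (2.62 and -1.31).

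The 2 lines were compared in control libraries that the choice of genes did not use, SKMES1 CRISPRa controls against the mean of the KYSE140 Cas9 controls and DMSO. Line, delivery system and solvent cannot be told apart in this comparison. VIM, SNAI1 and TWIST1 were higher and TGFBI was lower in SKMES1, and ZEB1 and FN1 were near 0 outside it. Called were 6 of 8 tested genes, against 56.9% of 15387 genes (31.4% higher and 25.5% lower). ZEB1 and FN1 passed the filter only through the SKMES1 libraries, where they are high, so this count is not read as support. CD68 was also higher there, at 66.68 and 132.27 TPM against 0.36 to 3.93 TPM, with PTPRC at 0.06 and 0.08 TPM. The 8 fibroblast genes summed to 63.8 and 81.4 TPM against 32.8 to 43.4 TPM, with THY1 at 47.74 and 59.06 TPM against 14.81 to 26.69 TPM and PDGFRB at 1.37 and 2.15 TPM against 0, while COL1A2, COL3A1 and DCN were at 0 in SKMES1. The part of these markers in the results was not tested.

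ZEB1 separated the lines, with 306 and 452 counts in the SKMES1 controls and 0, 2, 2 and 0 in the KYSE140 libraries. The pooled ratio was 328 with a 95% counting interval of 128 to 1207 (fitted log2 difference 8.15 ± 0.41, given as a description). ZEB2 had the reverse pattern at a few counts, 0 in both SKMES1 controls against 6, 4, 5 and 9, at least 4.62-fold lower with the floor of 3 counts over the group. Of the ZEB genes, then, SKMES1 had ZEB1 RNA and no detected ZEB2. The ZEB1 count may include reads of the antisense gene ZEB1-AS1 or the embedded pseudogene SPTLC1P1 if strand was not used in counting, which is not stated.

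FN1 had 2594 and 3097 counts against 0, 4, 0 and 2, a pooled ratio of 1642 (95% counting interval 754 to 4476). VIM was 10.3-fold higher, by 3.36 ± 0.12 on the log2 scale (edgeR adjusted p = 1.8e-07), and its level in SKMES1 controls was also above that in the KYSE140 libraries with e1 or SOX2 guides. SNAI1 was higher by 1.47 ± 0.34 and TWIST1 by 1.48 ± 0.22 (edgeR adjusted p = 0.00452 and 0.000390). TGFBI was lower, at 331.66 and 558.27 TPM against 679.35 to 1098.61 TPM, a difference of -1.04 ± 0.19 (edgeR adjusted p = 0.00118).

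SNAI2 and CDH2 were not called, with log2 differences of -0.23 ± 0.13 and -0.30 ± 0.13 (edgeR adjusted p = 0.140 and 0.0739), and their levels overlapped between the lines. CDH1, at 1.89 and 4.74 TPM in the SKMES1 controls, was lower by -6.58 ± 0.40 on the log2 scale (edgeR adjusted p = 3.0e-06). The CDH2 to CDH1 ratio in these controls was 10.4 and 37.3, with CDH1 low and CDH2 in the range of KYSE140. Without CRISPRa control replicate 2, the log2 differences were 3.15 for VIM, 10.62 for FN1, 1.47 for SNAI1, 1.58 for TWIST1 and -1.45 for TGFBI. CDH1 was at -8.24 in that fit.

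In the lists, 23 of 31 cytoskeleton and surface genes and 21 of 30 matrix genes were higher in SKMES1, with 4 and 9 lower. Over all genes tested 31.4% were higher and 25.5% lower. AXL was higher by 7.48 ± 0.13, NES by 5.09 ± 0.09 and the collagen gene COL6A2 by 8.17 ± 0.14 on the log2 scale, while the integrin gene ITGA2 was lower, at -1.32 ± 0.09. Epithelial genes were the reverse, 27 of 37 lower and 5 higher, with the vesicle GTPase RAB25 at -10.44 ± 0.25 and P-cadherin, CDH3, at -6.21 ± 0.16, although CLDN1 was higher by 1.71 ± 0.14. TGF-beta genes were 14 higher and 8 lower of 35, with SMAD3 at 3.49 ± 0.08 and TGFBR1 at -1.46 ± 0.09. The called share of this list, 62.9%, was near the 56.9% over all genes tested. Other mesenchymal transcription factors were 6 higher and 3 lower of 12, with PRRX1 at 8.44 ± 0.31 and TCF4 at -2.89 ± 0.10. PRRX1 was at 0 to 0.04 TPM in the Cas9 controls and 0.03 TPM in DMSO, and RAB25 at 0 to 0.16 TPM in the SKMES1 controls. Each passed the filter only through the line where it is high, and its fitted change is given as a description. The list counts include such genes and are not read as support. Without CRISPRa control replicate 2 the counts were 20 higher and 2 lower of the cytoskeleton and surface list, 20 and 9 of matrix, 4 and 29 of epithelial, 13 and 11 of TGF-beta genes and 5 and 3 of the other factors.

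Ordered by VIM level in TPM, the groups ran from ARV-771 (93.65 and 102.59) through CRISPRi controls and DMSO (113.82 to 122.21), Cas9 controls (237.29 and 267.44), e1 repression and SOX2 knockout (1082.03 to 1280.34) and SKMES1 with e1 guides (1178.49 and 1283.68) to SKMES1 controls (1638.95 and 2268.19). Ranges of CRISPRi controls and DMSO overlapped. The knockout range overlapped both that of e1 repression and that of SKMES1 with e1 guides.

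Genes with the pattern most like VIM over the 13 KYSE140 libraries, by Pearson's r of log2(TPM + 1) among 8504 genes with a mean of at least 10 TPM, were ZBED2 (0.997), TINAGL1 (0.993), CD44 (0.992), INHBA (0.991) and PRSS23 (0.989). ZBED2, a zinc-finger factor, had a mean of 0.36 TPM in CRISPRi controls, 50.9 TPM with e1 guides, 3.54 TPM in Cas9 controls and 49.6 TPM in the knockout. Like VIM, these 5 genes were higher in the Cas9 controls than in the CRISPRi controls. SNAI2 had an r of 0.87 with VIM, CDH1 0.68, TGFBI -0.32 and CDH2 -0.80. The points share the same 3 control pairs and the e1 contrast that chose VIM, so these values describe the libraries. ZBED2, INHBA and PRSS23 passed the limit of 10 TPM only through the e1 and SOX2 guide groups, where they are high. Their place in this order is therefore not read as support.

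**Figure D5:**
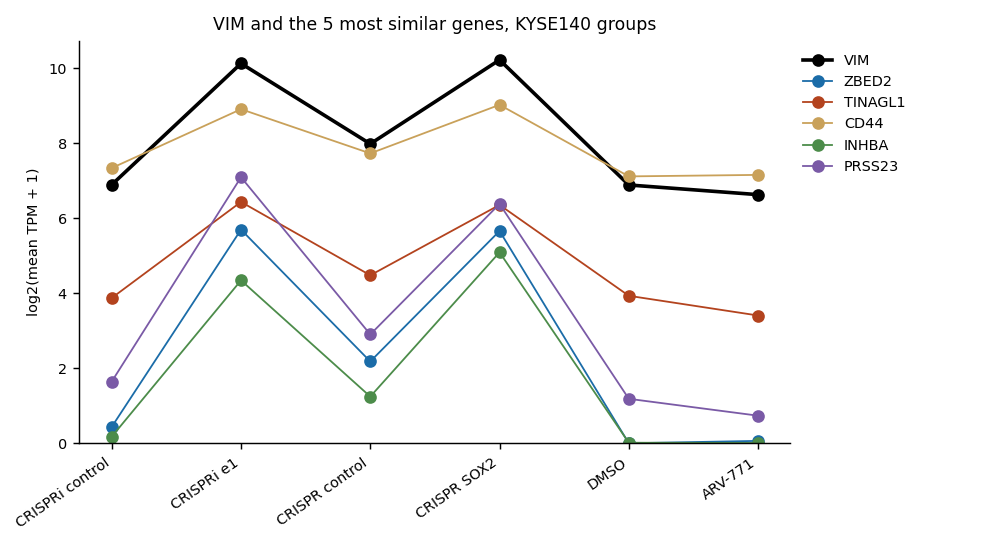
Group means as log2(mean TPM + 1) (vertical axis) of VIM (black) and of the 5 genes most like it over the KYSE140 libraries. All 6 lines peak in the e1 and SOX2 guide groups, and VIM and CD44 start from far higher control levels than ZBED2, INHBA and PRSS23.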

How the data were processed

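RNA was sequenced from poly-A libraries of a strand-directed kit. Per the labels and the study's methods, the authors aligned reads to hg19 with Bowtie2 and estimated expected counts and TPM per gene with RSEM on GENCODE genes; versions and the strand setting of counting are not given in the sources used here. The deposited TPM values were used as levels, and the deposited expected counts were rounded and tested with edgeR 4.0.16 (R 4.3.3): TMM scaling, filterByExpr (minimum count 10), quasi-likelihood fits over the groups compared, Benjamini-Hochberg adjustment over all genes tested, and calls at adjusted p under 0.05 and fold over 1.5. SE was taken as the size of the log2 change over the root of the F statistic. Counting intervals are 95% and, like the floor of 3 counts, cover counting error only. The fits were tested on simulated counts. The deposited FPKM values were not used.

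Members and lists were chosen with earlier results of these data known. Named list genes were, per list, comparison and direction, among the 2 called with the smallest p, with CDH1 always given. VIM counts were whole and at least 1513 in each library, and those of its antisense gene VIM-AS1 were 10 to 58. FN1 counts were not whole in 3 libraries, so reads shared with other features were split there. Same-numbered libraries were not taken as pairs (correlation of deviations 0.02 for e1 repression and -0.03 for ARV-771). Alternatives were other scaling, filters, fold limits, pseudocounts 1 and 0.1 with limma 3.58.1, DESeq2 1.42.0, the exact test, 1 fit over all 17 libraries, blocking on the replicate number, and dropping each library in turn.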

Additional observations from a re-analysis of the deposited data

How the results depend on the processing

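VIM, SNAI2, CDH2 and TGFBI kept their direction and call in the SOX2 knockout under all 15 alternatives, with VIM at 2.24 to 2.53 on the log2 scale. Between the lines VIM kept its direction and call under all 18. Leaving out each library in turn gave 4 to 7 called members in the knockout, 0 to 3 members, 0 to 30 list genes and 1 to 764 genes in all for e1 activation. For ARV-771, TWIST1 (-0.72 to -2.28) lost its call without DMSO A, DMSO B or ARV-771 B, with DESeq2, with no filter and with limma on log2(TPM + 0.1).

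With no filter on low counts, e1 repression had 8 members and 10783 genes past 1.5-fold and e1 activation had 3 members, 31 list genes and 1116 genes called. A fold over 2 left 2339 genes in the knockout and 2 members, 38 list genes and 3809 genes with ARV-771, and no minimum fold gave 7123 genes in the knockout. ARV-771 members called were 2 with library size only, 2 with limma on log2(TPM + 1) and 1 on log2(TPM + 0.1). Mitochondrial scaling turned VIM to -0.62, CDH2 to -0.16 and TGFBI to -0.14. For e1 activation, DESeq2 called 3 members, 15 list genes and 400 genes, the fit of all 17 libraries 3, 23 and 784, the exact test 2, 15 and 510, and limma 1 list gene with either pseudocount and 9 or 8 genes. The cause was not tested. The replicate block changed no call of a member: e1 repression had 4 members past 1.5-fold (VIM 3.27) and ARV-771 had 4 members called with the block, and genes called went from 7136 to 7090 with ARV-771. No paired analysis was possible for the knockout and e1 activation because those groups share fewer than 2 replicate numbers. Few counts per library in KYSE140 limit SNAI1, FN1, ZEB1, ZEB2, SPARC and, with ARV-771, TWIST1.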
